A study of Rattus norvegicus with 36 samples.

Results

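The report describes 9 genes of adhesion and inflammation in cultured rat granulosa cells: the adhesion molecules Vcam1 and Icam1, the chemokines Ccl2 and Cxcl1, the lipopolysaccharide co-receptor Cd14, the inflammatory caspases Casp1 and Casp4, and the lectins Reg3g and Cd302. They were found by symbol among the array's annotated probe sets, and each had 1 probe set, so they make up 9 of 14217 named genes and 9 of 31042 probe sets. Of the 9, Vcam1, Reg3g, Cd302, Casp4 and Cd14 were selected on changes in their log2 values between groups of these same arrays. Their differences are therefore given as descriptions with no p-value, and the fit's calls for them are only counted beside those of all probe sets, while Icam1, Ccl2, Cxcl1, Casp1 and the genes of the same pathways were tested. The tested members and the gene lists were also chosen with earlier results of these data known. Their p-values and list shares are not free of that choice.

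The cells came from the ovaries of Sprague-Dawley rats, still immature at 21 to 27 days of age, by needle puncture of the follicles, and were plated for 24 h with 5% serum before serum-free culture. All groups then received androstenedione, the substrate for estradiol synthesis, for which the labels give concentrations of 0.1 µM in one place and 0.1 M in another. For 48 h the cells carried 0, 1, 5 or 10 µM of HPTE, the bis-hydroxylated metabolite of the pesticide methoxychlor, with no stimulus (basal), with 3 ng/ml of follicle-stimulating hormone (FSH), or with 1 mM cAMP, whose chemical form the labels do not give. Each of the 12 groups had 3 arrays, numbered 1 to 3 in the labels. The labels do not say whether these came from separate cultures or animals, so every p-value below measures the spread between these arrays, which may be technical. Values are log2 intensities, and levels are compared only within a probe set, never between genes.

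FSH acts on granulosa cells through its receptor, which raises cAMP, so the cAMP groups bypass the receptor. Vcam1 and Icam1 are endothelial and leukocyte-binding adhesion molecules whose counter-receptors are integrins, and their genes are well-known targets of NF-kB, the transcription factor at the centre of innate immune signalling. Cd14 hands bacterial lipopolysaccharide to Tlr4, Casp1 and Casp4 process or sense cytosolic inflammatory signals, and Reg3g is a secreted antibacterial lectin of epithelia. In the ovary such genes are best known from ovulation, an event with features of an inflammatory reaction, and from resident macrophages.

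The bases just before the start sites are shown for 5 genes, because sites through which inflammatory genes are commonly controlled can lie there. The RefSeq promoter table (GRCr8) listed 6 of the 9 genes, and Casp4, Cd302 and Ccl2 are named only. The windows, each of 250 bases before the start, are chr2:206742784-206743033 (minus strand) for Vcam1, chr8:27829595-27829844 (plus) for Icam1, chr14:17479322-17479571 (minus) for Cxcl1, chr4:112484739-112484988 (minus) for Reg3g and chr4:112419526-112419775 (plus) for Reg3b, a neighbour and paralog of Reg3g. Capitals mark the motif matches.
Vcam1: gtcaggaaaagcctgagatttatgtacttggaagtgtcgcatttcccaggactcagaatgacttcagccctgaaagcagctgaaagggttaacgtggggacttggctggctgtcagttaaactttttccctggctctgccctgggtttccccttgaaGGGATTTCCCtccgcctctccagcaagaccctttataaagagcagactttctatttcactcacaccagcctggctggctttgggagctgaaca
Icam1: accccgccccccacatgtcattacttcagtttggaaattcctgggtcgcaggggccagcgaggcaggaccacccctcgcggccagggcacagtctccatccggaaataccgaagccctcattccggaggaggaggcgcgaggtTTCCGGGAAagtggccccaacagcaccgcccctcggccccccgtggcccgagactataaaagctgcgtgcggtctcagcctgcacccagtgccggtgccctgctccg
Cxcl1: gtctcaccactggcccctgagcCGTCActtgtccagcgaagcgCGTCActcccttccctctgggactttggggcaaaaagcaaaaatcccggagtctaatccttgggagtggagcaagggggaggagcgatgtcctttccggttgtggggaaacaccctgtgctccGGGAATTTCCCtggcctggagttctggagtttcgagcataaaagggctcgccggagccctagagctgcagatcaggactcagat
Reg3g: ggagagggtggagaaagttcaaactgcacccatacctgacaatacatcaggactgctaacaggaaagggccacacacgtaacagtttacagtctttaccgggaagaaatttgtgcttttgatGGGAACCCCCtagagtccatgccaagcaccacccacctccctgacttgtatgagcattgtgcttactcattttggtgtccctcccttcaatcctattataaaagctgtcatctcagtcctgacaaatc
Reg3b: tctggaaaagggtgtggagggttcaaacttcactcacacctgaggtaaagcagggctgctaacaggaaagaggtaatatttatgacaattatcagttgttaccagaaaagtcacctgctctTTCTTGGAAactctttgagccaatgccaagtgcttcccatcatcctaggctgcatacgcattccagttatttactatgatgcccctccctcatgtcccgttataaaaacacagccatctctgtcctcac

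The motifs were searched on both strands, from 250 bases before to 50 after the start. They were the NF-kB consensus GGGRNNYYCC (R for A or G, Y for C or T, N for any base) and the AP-1 site TGANTCA. The others were the core of the cAMP response element, TGACG, and the STAT site, TTC-NNN-GAA. The NF-kB consensus matched in Vcam1, Cxcl1 (at overlapping positions) and Reg3g, against 7.51% of 33469 promoters. The STAT site matched in Icam1 and in the neighbour Reg3b, against 8.87% of promoters. The cAMP response core matched only in Cxcl1 among the 6 listed members, at 2 places on the minus strand of the gene, against 21.2% of promoters. AP-1 matched in none of the 6 (7.33% of promoters), and the Cd14 and Casp1 windows held no match to any of the 4. A match is a description of letters and says nothing about binding in these cells. Only these exact patterns were counted, so a gene with no match may still hold a site of other letters. Unmarked stretches close to the NF-kB consensus include tggaaattcc in the Icam1 window and gggtttcccc in the Vcam1 window.

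The 36 arrays were of similar overall level, with array medians of 6.04 to 6.20 on the log2 scale. Array 3 of unexposed cAMP cells, in the baseline of the cAMP comparisons, stood apart with a 75th percentile of intensity of 205.5 against 227.5 to 268.9 on the others. Array 2 of the unexposed FSH group and array 2 of the unexposed cAMP group appeared exchanged in an earlier analysis. Whether their labels are wrong was not tested here. Array 3 of every group had a lower Gapdh 3' to 5' log2 ratio, 0.77 to 1.07 against 1.61 to 2.40 on arrays 1 and 2, a measure that varies with RNA integrity and amplification. Of 13 granulosa markers, 9 were higher with FSH and 8 with cAMP (against 8.06% and 7.18% of all probe sets called in either direction). At 10 µM HPTE in FSH cells 8 fell (against 8.45%). These counts describe responses to treatment and cannot check the cell type. Macrophages, leukocytes and endothelium are cell types known to carry several of the 9 genes. Of 18 macrophage and leukocyte markers and 11 endothelial markers, none passed the limma test in any of the 5 main comparisons. Of all probe sets, 1.02% to 8.45% passed in these comparisons. At most 1 leukocyte marker and 2 endothelial markers had an unadjusted p under 0.05 in any of them. With the array number as a block, Cd68 and Lyz2 passed in cAMP against basal cells and Tek in FSH cells at 10 µM. The block called 15.2% and 17.2% of all probe sets in these 2 comparisons. Csf1r, C1qb, Aif1 and Cd3e, and 7 of the endothelial markers, including Tie1, Vwf and Cldn5, lay below their array's median on every array. Others lay above it on every array, among them Cd48 (8.4 to 9.4), Laptm5 (7.0 to 8.0) and the endothelial marker Kdr (8.1 to 9.7). The leukocyte markers Lyz2 (5.6 to 11.1) and Fcer1g (4.9 to 9.6) ranged widely. The summed leukocyte intensity followed the array number, with medians of 3598, 2217 and 1807 for numbers 1, 2 and 3, and in the unexposed groups it ran from 1711 to 3950 in basal, 1339 to 3244 in FSH and 1311 to 2324 in cAMP cells. At 1 µM it ran from 1410 to 1432 in cAMP cells, against 1782 to 4049 in basal and 1933 to 3402 in FSH cells, and at 5 µM from 1344 to 1429, against 1897 to 3891 and 1978 to 3812, so that every cAMP array lay lowest at both doses. The part of these cells in the lower Icam1, Cd14, Casp4 and Cd302 of cAMP cells was not tested. Of 10 theca and stroma markers, 1 to 2 passed in each of the 5 comparisons (against 1.02% to 8.45% of all probe sets). With the block 1 to 3 passed (against 3.41% to 17.2%). Col3a1, a fibrillar collagen, fell with FSH (-1.17) and cAMP (-1.34) and rose at 10 µM in FSH (1.5) and cAMP cells (1.17). Cyp17a1 of the same list went the other way, with a rise with FSH (1.28) and a fall at 10 µM in FSH cells (-1.32). Col1a1 fell at 10 µM in basal (-1.57) and cAMP cells (-1.93). The part of theca and stromal cells in the members' values was not tested. In bulk RNA, fewer cells of a type and less RNA per cell cannot be told apart.

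**Figure D1:**
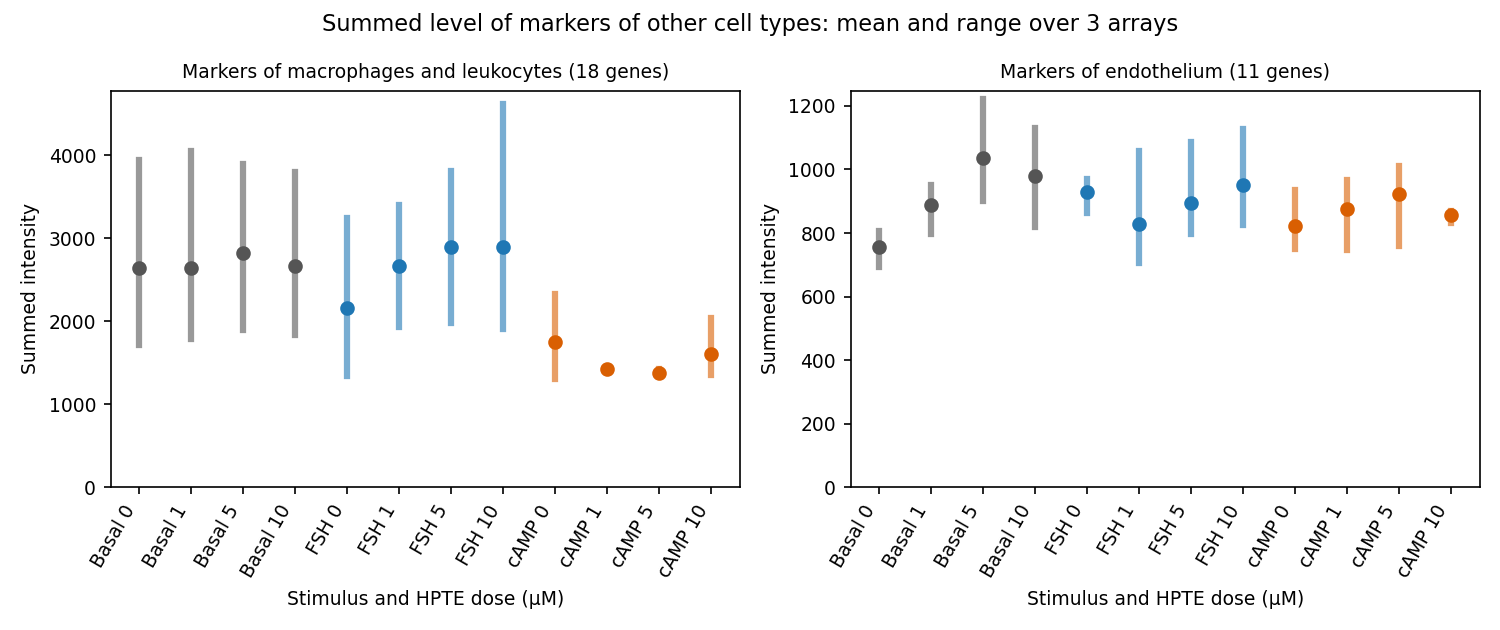
Summed intensity of 18 macrophage and leukocyte markers and of 11 endothelial markers (y axes, linear intensity) in each of the 12 groups (x axes); points are means over 3 arrays and bars the lowest and highest array. The leukocyte sums of cAMP cells lie below those of basal and FSH cells at 1 and 5 µM and overlap them at 0 and 10 µM, and the endothelial sums stay between 693 and 1222 on all arrays.

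The 9 genes did not behave as 1 block. Casp4 was higher with 10 µM HPTE in all 3 settings, Vcam1 and Reg3g were high in cAMP cells at 10 µM, Cd14 and Cd302 were low with FSH or cAMP alone and nearer to the basal level with HPTE, Icam1 rose with HPTE in FSH cells, and Ccl2, Cxcl1 and Casp1 passed no test. The range of the 12 group means was 4.21 log2 units for Vcam1, 3.28 for Casp4, 2.64 for Reg3g, 1.51 for Cd14, 1.47 for Icam1, 1.45 for Cd302, 0.86 for Cxcl1, 0.68 for Ccl2 and 0.38 for Casp1. The pooled SD between arrays of a group was 0.46, 0.33, 0.25, 0.32, 0.28, 0.30, 0.46, 0.25 and 0.22 in the same order, so only Cxcl1, Ccl2 and Casp1 had a range within 3 pooled SDs. Casp1 lay below its array's median on 36 of 36 arrays, Ccl2 and Reg3g on 32, and Cd14 and Cd302 on none. Between 2 compared groups, arrays did not overlap in a given direction for 0.886% to 12.5% of all probe sets, depending on the comparison.

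**Figure D2:**
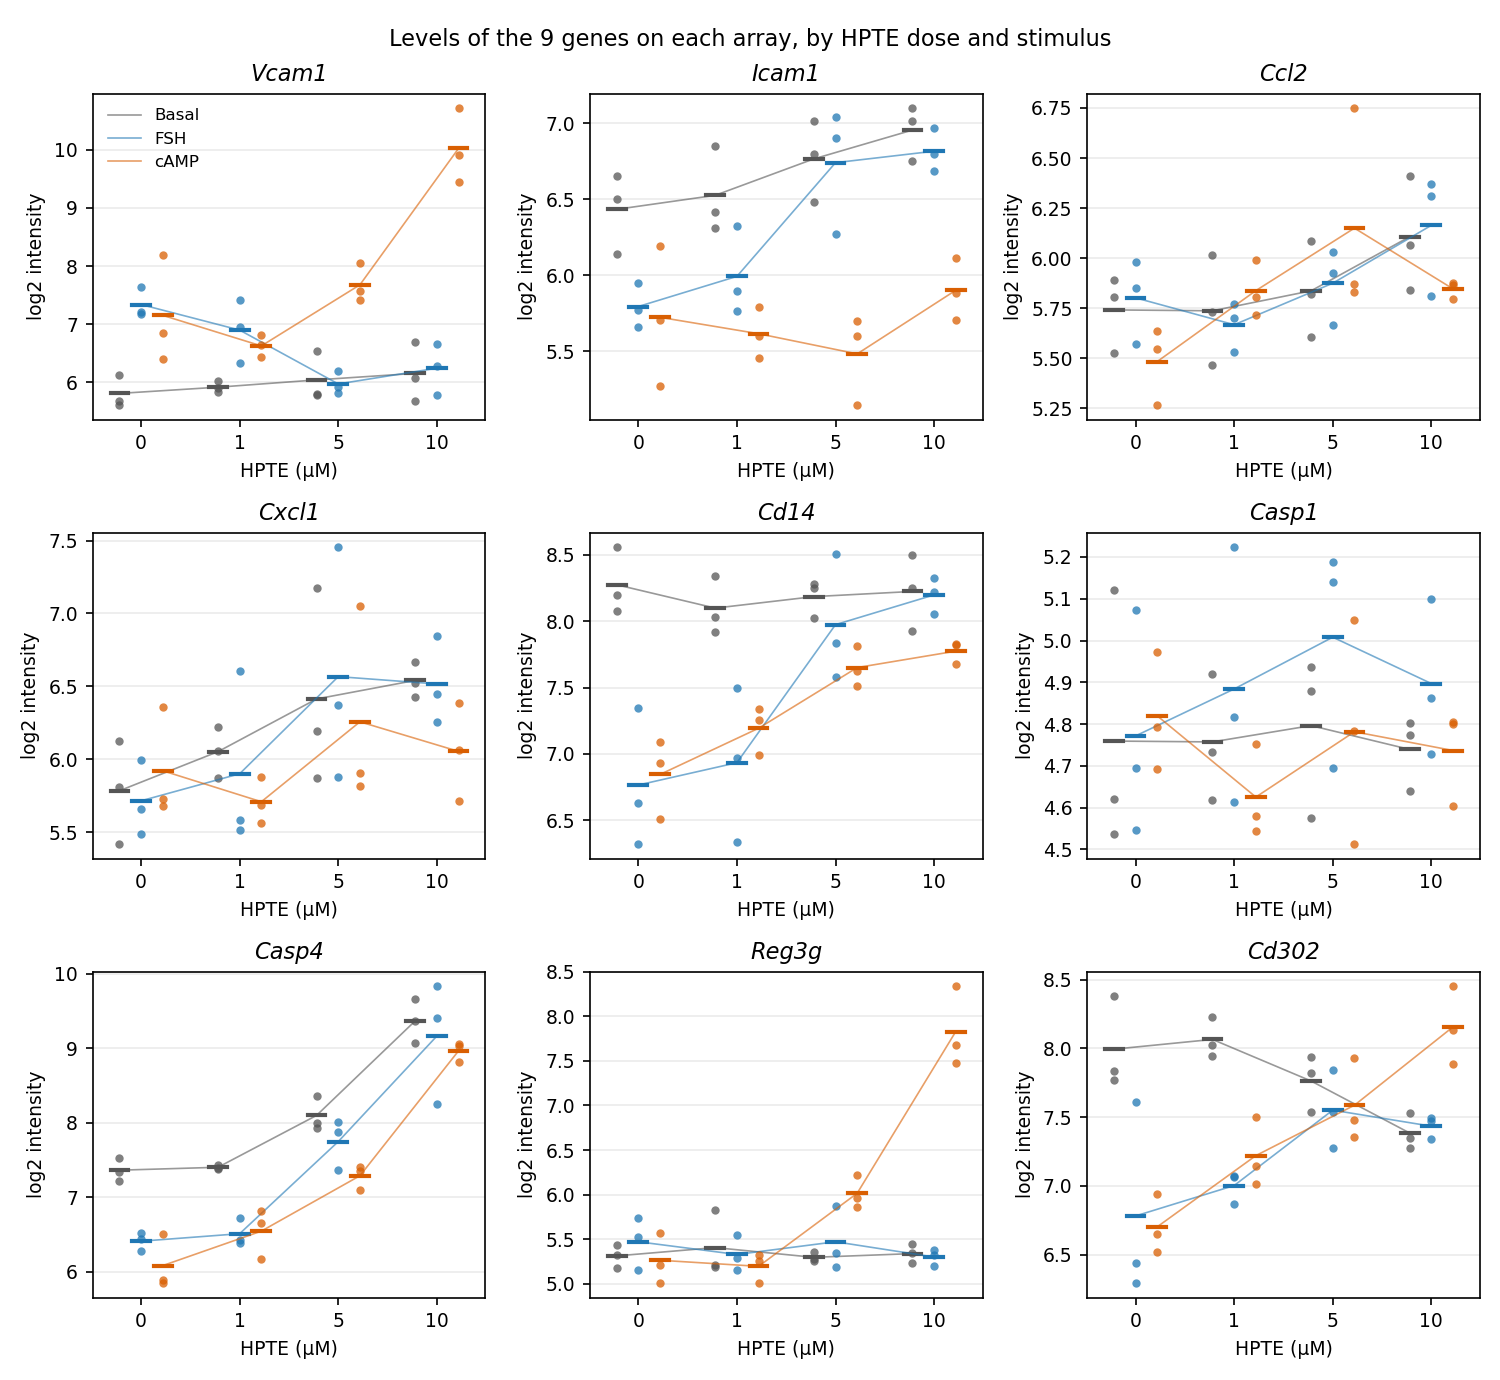
Log2 intensity (y axis) of the 9 genes, 1 panel each, on every array by HPTE dose in µM (x axis) and setting (basal, FSH, cAMP); points are single arrays and lines join the group means. Vcam1 and Reg3g are high on the 3 arrays of cAMP cells at 10 µM, Casp4 climbs with dose in all 3 settings, and Casp1 stays between 4.51 and 5.22.

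Vcam1, the endothelial receptor for the leukocyte integrin VLA-4, was low in basal cells and was highest in cAMP cells at 10 µM HPTE. Unexposed basal arrays 1 to 3 read 5.69, 6.14 and 5.61, FSH arrays 7.21, 7.17 and 7.64, and cAMP arrays 6.85, 8.20 and 6.41. Both stimuli therefore lay above basal on every array, FSH by 1.53 ± 0.36 (SE of the model, n = 3 against 3) and cAMP by 1.34 ± 0.36. The cAMP figure leaned on array 2, which may be exchanged with FSH array 2, and was 0.82 without it.

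At 10 µM HPTE the Vcam1 differences ran in opposite directions under the 2 stimuli, while at 1 µM they were small against their error (0.11 basal, -0.44 FSH and -0.53 cAMP, each ± 0.36). In FSH cells at 5 µM the arrays read 5.92, 6.19 and 5.81, and at 10 µM they read 6.66, 6.29 and 5.79, all below the unexposed FSH arrays. The differences were -1.36 ± 0.36 and -1.09 ± 0.36, that is 2.58-fold and 2.13-fold lower, and without array 3 of every group the value at 10 µM was -0.71. In cAMP cells the arrays read 8.05, 7.42 and 7.57 at 5 µM, overlapping the unexposed arrays, and 10.71, 9.91 and 9.45 at 10 µM, above every other array of the series. The difference at 10 µM was 2.87 ± 0.36, or 7.31-fold, with a 95% interval of 2.13 to 3.61. Basal cells read 6.70, 6.08 and 5.68 at 10 µM, 0.34 ± 0.36 from unexposed cells with overlapping arrays.

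At 10 µM the cAMP group thus stood 3.87 above basal and 3.78 above FSH, whereas the unexposed cAMP and FSH groups differed by 0.19 ± 0.36. The mean of cAMP cells at 10 µM, 10.02, was the highest of the 12, and it was the only one that did not overlap with its neighbour in the order of levels. The other 11 groups formed a run in which each neighbour overlapped. The comparisons within a setting share the unexposed arrays and are not independent of each other.

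Icam1, the receptor for the leukocyte integrins LFA-1 and Mac-1, fell with cAMP and rose with HPTE in FSH cells. Unexposed arrays 1 to 3 read 6.66, 6.50 and 6.14 in basal, 5.95, 5.77 and 5.66 in FSH and 5.70, 6.19 and 5.27 in cAMP cells. In FSH cells the arrays read 6.91, 7.04 and 6.27 at 5 µM and 6.97, 6.68 and 6.79 at 10 µM, all above the unexposed FSH arrays. Icam1 rose there by 0.95 ± 0.22 (adjusted p = 0.00588, limma) and 1.02 ± 0.22 (adjusted p = 0.00219, 95% interval 0.57 to 1.48). FSH cells then stood -0.02 and -0.14 from basal cells at those doses. The 5 µM value lost its call without array 2 of that group (0.80, adjusted p = 0.0586).

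In basal cells Icam1 read 7.10, 7.02 and 6.75 at 10 µM, above the unexposed arrays, but the difference of 0.52 ± 0.22 missed the threshold (adjusted p = 0.557). In cAMP cells at 10 µM it read 5.71, 6.11 and 5.89, which overlapped the unexposed arrays (0.18 ± 0.22, adjusted p = 0.969). The difference between the effects in FSH and cAMP cells, 0.84, did not pass either (adjusted p = 0.241, and 0.0236 with array number as a block). Tests of the effect in FSH against basal cells gave 0.50 with an adjusted p of 0.759, so the rise in FSH cells is not shown to differ from the value in basal cells.

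Icam1 was lower in cAMP than in basal cells at every dose. The difference was -0.71 unexposed (adjusted p = 0.0458), -0.91 at 1 µM (0.00613), -1.28 at 5 µM (0.000161) and -1.05 at 10 µM (0.00195). The unexposed call was lost on leaving out basal array 1 or 2, or cAMP array 1 or 3 (-0.49 to -0.70, adjusted p = 0.117 to 0.306), and the call at 1 µM on leaving out basal array 1 (-0.75, adjusted p = 0.0587). With FSH the unexposed difference was -0.64, which missed the threshold (adjusted p = 0.0771) and passed with array number as a block (0.00525) or without basal array 3 (0.0489). FSH cells stood above cAMP cells by 1.26 at 5 µM (adjusted p = 0.000315) and by 0.92 at 10 µM (0.00954), the latter lost without array 1 of either group (adjusted p = 0.0561 and 0.0699). With only the compared groups fitted, the calls for FSH above cAMP cells at 5 µM (adjusted p = 0.0518), for 5 µM HPTE in FSH cells (0.111) and for unexposed cAMP cells (0.286) were lost. Over 24 contrasts Icam1 passed in 8, and in 11 with array number as a block.

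Of 28 other measured genes of cell adhesion, from 33 listed, 4 rose at 10 µM HPTE in FSH cells and none fell (14.3% of the list, against 8.45% of all probe sets), 6 fell and none rose with FSH (21.4% against 8.06%), and likewise 6 fell with cAMP (21.4% against 7.18%). Their median difference was 0.12 at 10 µM in FSH cells against -0.02 over all genes, -0.17 with FSH and -0.18 with cAMP against -4.7e-05 and 0.02. In basal cells at 10 µM 1 rose, and in cAMP cells 1 rose (3.57% each, against 1.02% and 1.69%). With array number as a block the counts at 10 µM were 7 in FSH and 4 in cAMP cells (against 17.2% and 5.83% of all probe sets).

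Itgb3, the beta chain of the vitronectin receptor, showed the largest of these changes. Itgb3 rose at 10 µM HPTE by 3.01 ± 0.20 in FSH cells, or 8.03-fold (adjusted p = 8.51e-11), and by 2.04 in cAMP cells (3.08e-07). Its rise in basal cells, 1.03 (adjusted p = 0.00421), missed the threshold without array 3 of every group (0.0587). Without HPTE, Itgb3 fell with FSH (-2.07, adjusted p = 4.44e-08) and with cAMP (-2.10, 3.28e-08). The effect in FSH cells was 1.97 above that in basal cells (adjusted p = 0.00014). Itgb1, the common beta chain that also pairs with alpha 4 to bind Vcam1, rose by 0.76 ± 0.13 in FSH cells (adjusted p = 0.000111), with values of -0.15 in basal and 0.08 in cAMP cells, and fell with FSH (-0.89, 1.32e-05) and cAMP (-0.77, 9.44e-05). The leukocyte integrin chains Itgb2, Itgal and Itgam, the partners of Icam1, passed in none of these comparisons.

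Ccl2, the chemokine that attracts monocytes, did not pass limma's test in any of the 24 contrasts, with 1 at an unadjusted p under 0.05. Its arrays ran from 5.27 to 6.75, and group means from 5.48 in unexposed cAMP cells to 6.16 in FSH cells at 10 µM. At 10 µM HPTE the differences were 0.37, 0.36 and 0.36 in basal, FSH and cAMP cells, with a 95% interval of -0.05 to 0.78 in basal cells. In cAMP cells at 5 µM it read 6.75, 5.83 and 5.87, where array 1 alone was high, and the difference of 0.67 ± 0.20 (adjusted p = 0.531) was 0.37 without that array.

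Cxcl1, the neutrophil chemokine, likewise passed in none of 24, with 3 at an unadjusted p under 0.05. It was high on array 1 at 5 µM in all 3 settings, at 7.18 in basal, 7.45 in FSH and 7.05 in cAMP cells, while arrays 2 and 3 of these groups read 5.81 to 6.37. The differences at 5 µM therefore rested on that array, falling from 0.63 to 0.25 in basal and from 0.85 to 0.41 in FSH cells without it. At 10 µM they were 0.76 ± 0.36 in basal (adjusted p = 0.732), 0.80 ± 0.36 in FSH (0.225) and 0.13 ± 0.36 in cAMP cells. The receptors Ccr2 and Cxcr2, and the neighbouring chemokines Ccl7, Cxcl2 and Cxcl3, also passed in none of the 5 main comparisons. Of 32 measured chemokines and receptors of 37 listed, none passed at 10 µM HPTE in basal or cAMP cells (5 rose in cAMP cells with array number as a block), 1 rose and 3 fell in FSH cells (12.5% against 8.45% of all probe sets), 3 rose and 1 fell with FSH (12.5% against 8.06%), and 1 rose with cAMP (3.12% against 7.18%, and 4 rose and 2 fell with the block). The 3 that fell in FSH cells were 0 or 1 on leaving out 5 of the 6 arrays, all but unexposed array 2, and leaving out any array took the calls with FSH to 1 or 2 higher and 0 or 1 lower. The riser in FSH cells was Cxcl10, an interferon-induced T cell chemokine, by 1.31 ± 0.28 (adjusted p = 0.00176). Of all probe sets, the block called 5.83% at 10 µM in cAMP cells and 15.2% with cAMP.

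Cd14, which presents lipopolysaccharide to the Tlr4 complex, was lower with either stimulus and nearer to basal with HPTE. Unexposed basal arrays 1 to 3 read 8.07, 8.56 and 8.19, FSH arrays 6.32, 7.35 and 6.63, and cAMP arrays 7.09, 6.51 and 6.93. The stimulated arrays all lay below the basal ones, with mean differences of -1.51 ± 0.25 for FSH (2.85-fold) and -1.43 ± 0.25 for cAMP. In FSH cells at 5 and 10 µM the arrays read 7.58, 8.51 and 7.84, and 8.05, 8.22 and 8.32, above all unexposed FSH arrays.

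The differences for Cd14 in FSH cells were 0.17, 1.21 and 1.43 ± 0.25 at 1, 5 and 10 µM, and at 10 µM the FSH and basal means differed by only -0.03. In cAMP cells they were 0.35, 0.81 and 0.93 ± 0.25, with 10 µM arrays at 7.82, 7.83 and 7.67, above all unexposed cAMP arrays and at -0.45 against basal. Basal cells read 7.92, 8.50 and 8.25 at 10 µM, overlapping the unexposed arrays (-0.05 ± 0.25). The effect at 10 µM was larger than in basal cells by 1.49 with FSH and 0.98 with cAMP. In the order of group means, only the step after cAMP cells at 5 µM separated neighbouring groups without overlap.

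Of 24 measured genes of lipopolysaccharide and Toll-like receptor signalling, of 29 listed, 1 rose and 1 fell at 10 µM HPTE in FSH cells (8.33% against 8.45% of all probe sets), and 1 fell with FSH and 1 with cAMP (4.17% each, against 8.06% and 7.18%). With array number as a block, 5 rose and 1 fell in FSH cells and 1 rose in cAMP cells at 10 µM. With FSH 1 rose and 1 fell, and 2 fell with cAMP. That fit called 17.2%, 5.83%, 16.1% and 15.2% of all probe sets, in the same order. The fall in FSH cells was lost on leaving out any of 5 arrays, all but unexposed array 2. Tlr2, which also uses Cd14 as co-receptor, was lowered by FSH (-0.95, adjusted p = 0.00199) and by cAMP (-1.01, 0.00116), and rose at 10 µM in FSH cells by 0.91 ± 0.20 (0.00292). In cAMP cells its difference was 0.55 (adjusted p = 0.26, and 0.0484 with the block). Tlr4 itself was 0.53 higher in FSH cells at 10 µM (adjusted p = 0.0972, and 0.0456 with the block), and its partner Ly96 was 0.38 higher (0.701, and 0.00599 with the block). The adaptor Myd88 and the binding protein Lbp passed in none of the 5 main comparisons. Myd88 was -0.48 with cAMP. It passed there without unexposed cAMP array 1 (-0.58, adjusted p = 0.0352) or array 2 (-0.63, 0.0119), the latter possibly exchanged.

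**Figure D3:**
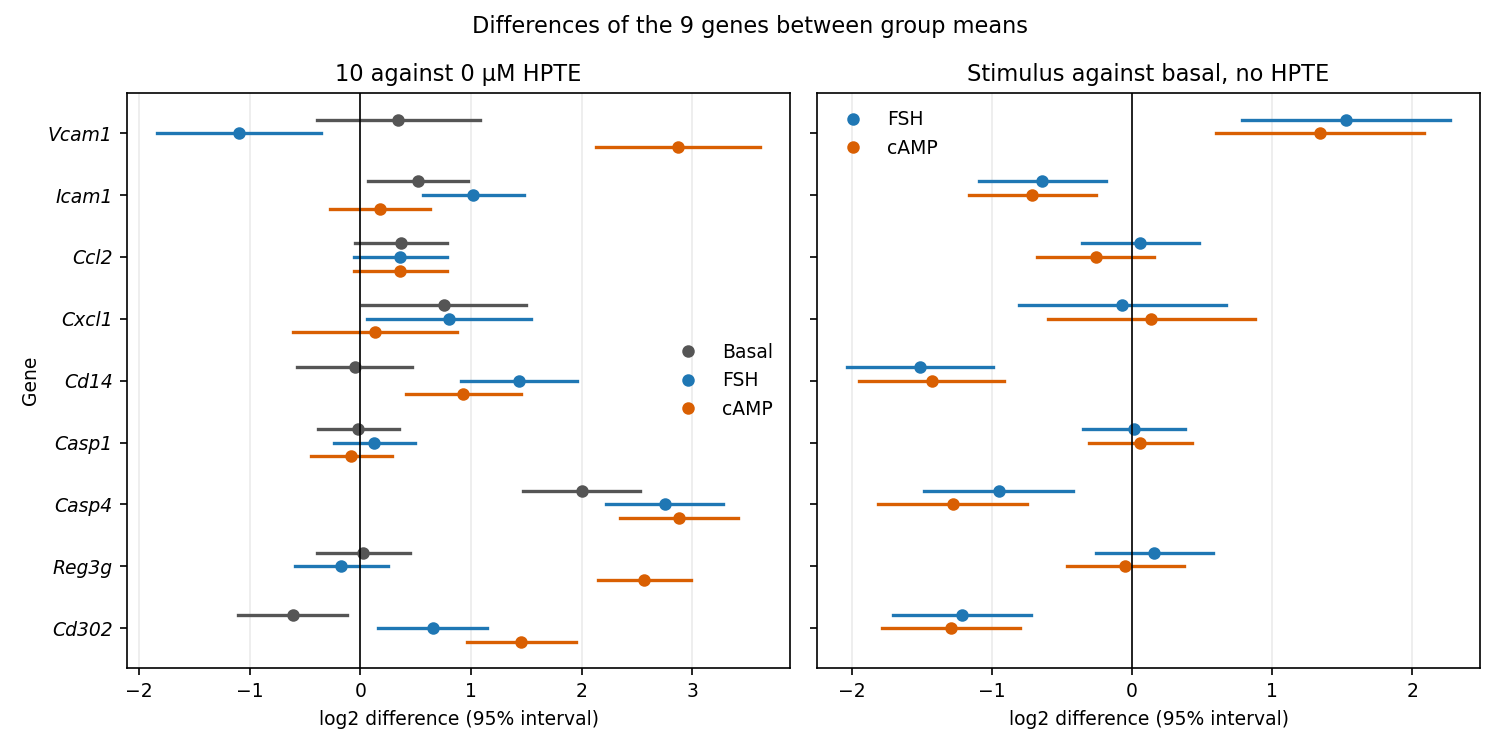
Log2 difference (x axis) with its 95% interval for the 9 genes (y axis): 10 against 0 µM HPTE in basal, FSH and cAMP cells, and FSH or cAMP against basal cells without HPTE. Casp4 lies right of 0 for HPTE in all 3 settings (2.00, 2.75 and 2.88), Vcam1 lies on opposite sides in FSH and cAMP cells (-1.09 and 2.87), and Cd14, Casp4 and Cd302 lie left of 0 for both stimuli.

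Casp4, the inflammatory caspase of the noncanonical inflammasome, was the only one of the 9 with HPTE differences of 2.00 or more in all 3 settings. In basal cells the arrays read 7.53, 7.23 and 7.34 unexposed, 7.93, 8.0 and 8.37 at 5 µM, and 9.07, 9.37 and 9.66 at 10 µM. In FSH cells they read 6.27, 6.53 and 6.44, then 7.37, 8.01 and 7.87, then 8.26, 9.40 and 9.83, and in cAMP cells 5.89, 6.51 and 5.85, then 7.36, 7.41 and 7.10, then 8.81, 9.05 and 9.03. In each setting the 3 doses did not overlap. The differences at 1, 5 and 10 µM were 0.04, 0.73 and 2.00 in basal, 0.10, 1.34 and 2.75 in FSH, and 0.46, 1.21 and 2.88 in cAMP cells, each ± 0.26, and those at 10 µM equal 4.00-fold, 6.73-fold and 7.36-fold.

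FSH and cAMP cells started lower in Casp4, by -0.95 and -1.28 ± 0.26 against basal, and at 10 µM the gaps were -0.20 and -0.40. The effect of 10 µM exceeded that in basal cells by 0.75 with FSH and by 0.88 with cAMP. The FSH excess leaned on single arrays of the exposed FSH group and was 1.20 without array 1 and 0.42 without array 3.

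Casp1, which matures interleukin 1 beta and lies beside Casp4 and Casp12 on the rat genome (gene order of GRCr8), showed no such differences. Its arrays ran from 4.51 to 5.22 and its differences at 10 µM were -0.02, 0.13 and -0.08 ± 0.18 in basal, FSH and cAMP cells. It passed limma's test in 0 of 24 contrasts, and none reached an unadjusted p under 0.05. A probe set below the array median throughout can hide a small change. Casp12, the third gene of the row, rose at 10 µM in FSH cells by 1.53 ± 0.33 (adjusted p = 0.00191), which missed the threshold without array 3 of every group (1.05, 0.0543), with values of 0.77 in basal (0.556) and 0.47 in cAMP cells (0.817).

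Of 19 measured inflammasome and pyroptosis genes of 28 listed, 1 rose at 10 µM in FSH cells (Casp12), 1 in cAMP cells and 1 with FSH, and none fell (5.26% each, against 8.45%, 1.69% and 8.06% of all probe sets). With array number as a block, 2 rose and 2 fell in FSH cells, 2 rose and 1 fell with FSH, and 1 rose with cAMP. That fit called 17.2%, 16.1% and 15.2% of all probe sets, in the same order. The genes that rose in cAMP cells and with FSH were the same, Il18, a cytokine matured by Casp1. Il18 rose by 1.35 ± 0.23 in cAMP cells at 10 µM (adjusted p = 0.000858) and by 1.01 with FSH (0.00428). Both missed the threshold without array 3 of every group (1.27, adjusted p = 0.0833, and 0.74, 0.271). Its values in FSH cells went the other way (-0.65, adjusted p = 0.0862, and 0.0169 with array number as a block), and the 2 effects differed by -2.00 (0.000703). Il1b, the adaptor Pycard and the pore protein Gsdmd passed in none of the 5 main comparisons.

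Reg3g, a C-type lectin that binds bacterial cell walls, was high only in cAMP cells with HPTE. Its arrays ran from 5.01 to 5.87 in all 8 basal and FSH groups and in cAMP cells at 0 and 1 µM. In cAMP cells it read 6.22, 5.86 and 5.96 at 5 µM and 7.68, 7.48 and 8.34 at 10 µM. The latter 3 lay above every other array. The differences in cAMP cells were -0.07, 0.75 and 2.57 ± 0.20 at 1, 5 and 10 µM, the last with a 95% interval of 2.15 to 2.99, against 0.03 in basal and -0.17 in FSH cells at 10 µM.

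The gene order of GRCr8 places Reg3b, Reg3a, Reg1a and Reg3g in a row, and Reg3b was likewise high in cAMP cells at 10 µM. Reg3b arrays read 8.03, 6.92 and 7.06 in cAMP cells at 10 µM and 4.76 to 5.55 on all others. It rose there by 2.12 ± 0.19 (adjusted p = 6.01e-08), with 0.30 in basal (1.00) and -0.10 in FSH cells (0.934). At 5 µM in cAMP cells Reg3b differed by 0.01 (adjusted p = 0.999), where Reg3g was 0.75 higher. The effect in cAMP cells exceeded that in basal cells by 1.82 (adjusted p = 0.00073) and FSH stood below cAMP by 2.22 (-2.22, 1.29e-05). Reg3a showed 0.05 and Reg1a 0.56 in cAMP cells (adjusted p = 0.131, and 0.0312 with array number as a block). Reg3g and Reg3b are close paralogs, and how far the probes of one bind the other was not tested.

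**Figure D4:**
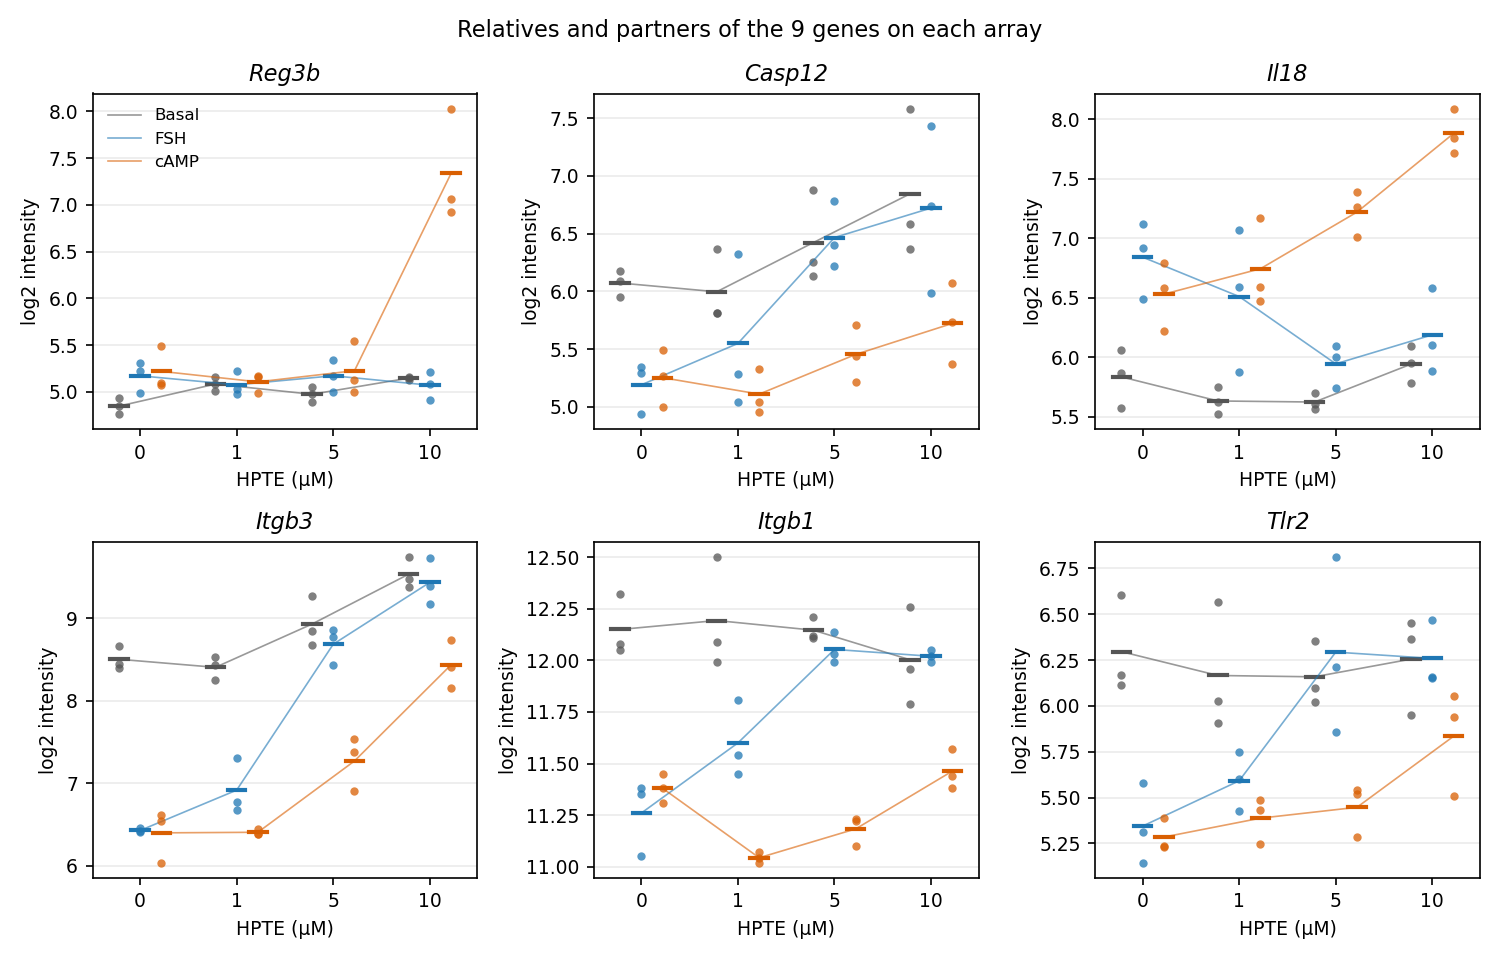
Log2 intensity (y axis) of Reg3b, Casp12, Il18, Itgb3, Itgb1 and Tlr2 on every array, by HPTE dose in µM (x axis) and setting; points are arrays and lines join group means. Reg3b is above 6.9 only on the 3 arrays of cAMP cells at 10 µM, and Itgb3 is higher at 10 than at 0 µM in FSH and cAMP cells (3.01 and 2.04).

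Cd302, a lectin-like receptor of phagocytes that takes part in cell adhesion and migration, was lower with both stimuli and had opposite signs with HPTE. Unexposed arrays 1 to 3 read 7.77, 8.38 and 7.83 in basal, 6.29, 7.61 and 6.44 in FSH and 6.94, 6.65 and 6.52 in cAMP cells, so that both stimulated groups lay below basal, by -1.21 and -1.29 ± 0.24. At 10 µM the arrays read 7.53, 7.35 and 7.28 in basal, all below unexposed basal cells, and 8.45, 7.89 and 8.13 in cAMP cells, all above unexposed cAMP cells. The differences were -0.61 and 1.45 ± 0.24, the latter 2.74-fold.

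In FSH cells Cd302 read 7.49, 7.47 and 7.34 at 10 µM, within the spread of the unexposed FSH arrays because array 2 there was high. The difference was 0.65 ± 0.24, and it was 1.07 without that array and 0.41 without array 1 of the same group. At 5 µM it was 0.77, or 1.18 without array 2. This unexposed FSH array 2 may be exchanged with unexposed cAMP array 2. At 10 µM the cAMP mean stood 0.77 above basal, whereas with no HPTE it stood below. Of the neighbours, the endocytic receptors Ly75 and Pla2r1, Ly75 passed in none of the 5 main comparisons. Pla2r1 fell, as Cd302 was lower, with FSH (-1.83, adjusted p = 5.4e-06) and cAMP (-1.70, 1.43e-05). At 10 µM HPTE Pla2r1 rose by 0.83 in FSH cells (adjusted p = 0.0257), with -0.81 in basal (0.139, and 0.00124 with array number as a block) and 0.13 in cAMP cells (0.996). The rise lost its call on leaving out unexposed array 1 or 3 or exposed array 2 or 3 (adjusted p = 0.0762 to 0.189).

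Among 25 measured Reg family genes and other lectins, of 33 listed, 4 rose at 10 µM HPTE in FSH, 2 (Reg3b and Lgals3) in cAMP and 1 in basal cells (16%, 8% and 4% of the list, against 8.45%, 1.69% and 1.02% of all probe sets), while 3 fell with FSH and 4 with cAMP (12% and 16%, against 8.06% and 7.18%). With array number as a block, 6, 5 and 1 rose and 2 fell in basal cells, while 5 fell with FSH and 5 with cAMP. Of all probe sets, the block called 17.2%, 5.83% and 3.41% at 10 µM, and 16.1% with FSH and 15.2% with cAMP. Lgals3, galectin-3, a lectin of macrophages and many other cells, rose by 3.11 in FSH cells (adjusted p = 2.19e-08) and 2.04 in cAMP cells (6.14e-05), and fell with FSH (-1.63) and cAMP (-2.15). It was also the riser in basal cells (1.13, adjusted p = 0.0472), a call lost on leaving out any 1 of 5 of the 6 arrays (adjusted p = 0.0573 to 0.233), all but unexposed basal array 1.

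Around these genes, the NF-kB and cytokine list held changes in both directions. Of 36 measured of 39, 5 rose and 1 fell at 10 µM in FSH cells (16.7% against 8.45% of all probe sets), 3 rose in cAMP cells (8.33% against 1.69%, and 5 with array number as a block) and none passed in basal cells, while 2 rose and 6 fell with FSH (22.2% against 8.06%) and 6 fell with cAMP (16.7% against 7.18%). The falls leaned on single arrays: with FSH 2 to 4 passed on leaving out any 1 array (2 without unexposed basal array 2 or FSH array 1), and with cAMP 3 to 5 (3 without unexposed basal array 2). The 5 rises in FSH cells were 3 without unexposed array 1 or exposed array 3, and the 1 fall became 3 without unexposed array 2. Il1r1, the signalling receptor for interleukin 1, fell with FSH (-2.11, adjusted p = 7.69e-05) and cAMP (-2.24, 3.45e-05) and rose by 1.53 ± 0.34 in FSH cells at 10 µM (0.00285). Averaged over the gene's probe sets, the last value was 0.70 (adjusted p = 0.0644). Nfkbiz, a nuclear co-regulator of NF-kB, rose there by 1.91 (adjusted p = 0.000458). Tnfaip2 fell with both stimuli (-1.26 and -1.52). The subunits Rela and Nfkb1 and the inhibitors Nfkbia and Tnfaip3 passed in none of the 5 main comparisons. With the block, 5.83% of all probe sets were called at 10 µM in cAMP cells.

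The gp130 and STAT3 pathway controls Reg3 genes in epithelia. Of 21 measured genes of 24 listed, 1 rose at 10 µM HPTE in cAMP cells (4.76% against 1.69% of all probe sets), 2 fell in FSH cells (9.52% against 8.45%), 2 rose with FSH (9.52% against 8.06%), and 2 rose and 1 fell with cAMP (14.3% against 7.18%). With array number as a block these were 2 higher, 2 higher and 3 lower, 2 higher and 2 lower, and 2 higher and 2 lower. That fit called 5.83%, 17.2%, 16.1% and 15.2% of all probe sets, in the same order. Leaving out any 1 array gave 0 to 1 higher and 0 to 1 lower with cAMP, 1 to 2 higher and 0 to 2 lower with FSH, and 1 to 2 lower in FSH cells. The riser in cAMP cells was Stat3 itself, by 1.11 (adjusted p = 0.0099). That call was lost without array 3 of the unexposed group (0.0537) or of the exposed group (0.154). Stat3 was also the gene that fell with cAMP (-0.90, adjusted p = 0.017), from 8.17 in unexposed basal cells to 7.27. This fall lost its call without unexposed basal array 1 or 3 or cAMP array 3 (0.0585 to 0.0729). At 10 µM the mean of cAMP cells was 8.38. Stat3 was 0.69 higher at 10 µM in FSH cells and 0.71 lower with FSH than basal. Both missed the threshold, and passed with array number as a block (adjusted p = 0.00817 and 0.00674).

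The rule chose 5 of the 9 genes on these contrasts, so the fit's calls at an adjusted p under 0.05 are counted here beside the share of all probe sets, and nothing is read from them. At 1 µM none was called in basal (0% of all probe sets, with 159 at an unadjusted p under 0.05), FSH (0.00644%) or cAMP cells (0%). At 5 µM none was called in basal (0.0129%) and none in cAMP cells (0.00322%), while in FSH cells 4 were called higher and Vcam1 lower (6.54%). At 10 µM Casp4 was called in basal cells (1.02%), and Vcam1, Casp4, Reg3g and Cd302 in cAMP cells (1.69%). Icam1, Cd14 and Casp4 were called in FSH cells at 10 µM (8.45%), or 5 members with array number as a block (17.2%).

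For FSH against basal, Vcam1 was called higher and 3 members lower without HPTE (8.06%), and 2 lower at 1 µM (3.03%). None was called at 5 µM (0.00322%) or 10 µM (0%). The block called 4 members at 1 µM, and 2489 of 31042 probe sets. For cAMP against basal, 1 was higher and 4 lower without HPTE (7.18%), 4 lower at 1 µM (8.71%), 2 higher and 2 lower at 5 µM (8.08%), and 2 higher and 1 lower at 10 µM (6.18%). FSH against cAMP gave 1 higher and 1 lower at 5 µM (5.59%) and 1 higher and 2 lower at 10 µM (4.76%). With the block, 4 members and 3441 of 31042 probe sets were called at 10 µM. The effect of 10 µM differed for 2 members between FSH and basal (2.17%), for 3 between cAMP and basal (0.129%) and for 2 between FSH and cAMP (1.88%). Without number 3 of every group, Cd14 and Cd302 lost these calls between FSH and basal, and Vcam1 and Cd302 between cAMP and basal. Leaving out 1 array, the Vcam1 call between cAMP and basal was lost for 9 of 12 arrays.

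The genes whose 12 group means ran most alike to a member are given as a description, with Pearson's r over 12 points that share arrays and with no p. For Casp4 they were Angptl4 (0.991), Slc7a3 (0.989) and Sfxn1 (0.985), and for Vcam1 S100b (0.989), Rpp25 (0.969) and Dusp15 (0.962). Icam1 ran with Efna5 (0.986), Rab32 (0.986) and Ifrd1 (0.985), and Cd14 with Mgst3 (0.974), Chmp4c (0.972) and Emp2 (0.972). Reg3g ran with Cldn10 (0.974), its neighbour Reg3b (0.966) and Sod3 (0.947). For the remaining genes the likeness was lower, with best values of 0.917 for Cd302 (Emb), 0.899 for Cxcl1 (Nradd), 0.807 for Ccl2 (Rsad2) and 0.758 for Casp1 (Pilra).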

How the data were processed

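Total RNA (40 ng per sample, amplified with NuGEN Ovation, per the labels' protocols) was hybridised to Affymetrix whole-genome rat arrays. The authors deposited 1 table of linear intensity values, normalized by RMA per the submitters' processing notes. The series' design text names ArrayAssist, with no version in the sources used here. RMA makes array distributions alike, so a shift shared by most genes would not show. With 3 arrays a group, precision is limited by their number.

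Of 31099 probe sets, 57 controls were set aside. The platform annotation named 1 gene for 20826, several for 436 and none for 9780, and the probe set with the highest mean stood for a gene. The deposited intensity values were turned to log2 and fitted with limma 3.58.1 (R 4.3.3) as 12 group means with 24 residual degrees of freedom. Each contrast was adjusted over 31042 probe sets (Benjamini-Hochberg, threshold 0.05). The fit was tested on simulated data with independent noise on each array. That test cannot show how the fit behaves where arrays deviate together. Same-numbered arrays deviated together: in the 5 main comparisons every such pair correlated at 0.155 to 0.812, and over all comparisons 189 of 198 pairs were over 0.1 (lowest -0.124). The fit with array number as a block is given for several named genes whose call it changes. It is also given for several counts that it moves by over 1.5 times. Among calls it added that are not given above was Nfkbiz at 10 µM in cAMP cells (0.99, adjusted p = 0.00266). With cAMP against basal it added Il18 (0.69, 0.0117) and Cxcl10 (-0.85, 0.00894). With FSH against basal it added Casp12 (-0.88, 0.0397) and, at 1 µM, Icam1 (-0.53, 0.0375).

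The members and gene lists were chosen with earlier results of these data known. List genes named are the most changed of each list, with genes tied to a member's role, its neighbours in the genome and the 3 genes most alike in pattern (SD of group means at least 0.3). Alternatives were the block, quantile normalization, a filter at log2 of 6, 16 added to intensities, trended variance, gene means, compared groups alone, and arrays left out, among them number 2 of the unexposed FSH and cAMP groups, which appeared exchanged in an earlier analysis. Promoter sequences are RefSeq's (GRCr8).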

Additional observations from a re-analysis of the deposited data

Results flagged for a closer look

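The effect of 10 µM HPTE differed between settings, by limma's test of the difference, for 12 of the list genes. The 7 lists held 19 to 36 measured genes each. Of all probe sets, 2.17% passed for FSH minus basal, 0.129% for cAMP minus basal and 1.88% for FSH minus cAMP. For FSH minus basal 3 of 28 adhesion genes and 3 of 25 lectins passed, and 0 to 2 of any list otherwise. Reg3b had an effect 1.82 larger in cAMP than in basal cells, with FSH minus cAMP at -2.22. The Reg3b difference from basal cells missed the threshold when only the compared groups were fitted (adjusted p = 0.179). Itgb3 (1.97), Il1r1 (2.04, adjusted p = 0.0175), Lgals3 (1.97, 0.00571), Pla2r1 (1.65, 0.00643), Lgals1 (1.09, 0.0214), Itga6 (1.09, 0.00837) and Itgb1 (0.91, 0.00374) had larger effects in FSH than in basal cells. Against cAMP cells the effect in FSH cells was larger for Itga6 (1.55, adjusted p = 0.00037), Clec14a (0.95, 0.0296) and Itgb1 (0.68, 0.0415), and smaller for Il18 (-2.00), Cxcl12 (-1.49, 0.0286) and Sod2 (-1.12, 0.0291).

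For Vcam1 every array at 10 µM lay below the unexposed ones in FSH cells (-1.09) and above them in cAMP cells (2.87). For Cd302 every array lay below in basal (-0.61) and above in cAMP cells (1.45). Without overlap, 10.4% of all probe sets lay lower in FSH and 4.76% in basal cells, and 5.28% higher in cAMP cells. Both genes were chosen for such differences, so the values are descriptions and are given with no test.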

How the results depend on the processing

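With array number as a block, the members called at 10 µM HPTE in FSH cells numbered 5 instead of 3. The share of all probe sets called there was 17.2% instead of 8.45%. Without number 2 of the unexposed FSH and cAMP groups the members likewise numbered 5, beside 8.28% of all probe sets. With only the compared groups fitted, the members called for cAMP against basal cells numbered 3 instead of 5. The share of all probe sets was then 2.85% instead of 7.18%. Leaving out 1 array, or 1 number from every group, gave 2 to 5 members for FSH against basal (2 without number 3) and 3 to 4 for cAMP against basal (3 without unexposed basal array 1). At 10 µM it gave 1 to 1 in basal, 3 to 4 in FSH and 3 to 4 in cAMP cells. Over the 198 values of the members, the block added 10 calls and lost 0, while leaving out number 3 lost 19 and fitting only the compared groups lost 13. No called value changed sign under the alternatives run. Small changes in Casp1, Ccl2 and Reg3g, which lay below the array median on most arrays, may go undetected.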
